A study of Mus musculus with 12 samples.

Results

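The skeletal muscle genes are 35 named genes of the contractile apparatus, its membrane and its regulators, among them Dysf, which encodes the membrane repair protein dysferlin. They were chosen by name, with earlier results of these data known. The values of Dysf and the other genes are therefore described here and are no independent support for the choice. Every ATAC-seq peak whose assigned gene symbol was one of them was taken from both deposited peak tables. In brown fat (BAT), 89 of 58558 peaks were assigned to 25 of the genes, and in inguinal white fat (iWAT), 53 of 39558 peaks were assigned to 20 of them. Together, 30 of the 35 genes had an assigned peak in at least 1 tissue, out of 17915 genes that did in the whole series.

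The study asked how BAF60a (gene Smarcd1), a subunit of the SWI/SNF chromatin-remodelling complexes, sets chromatin accessibility in thermogenic fat. Mice carrying floxed BAF60a alleles and an Adiponectin-Cre transgene, which deletes the gene in adipocytes (AKO), were compared with flox/flox littermates without Cre (flox), all of strain C57BL/6. Whole brown fat came from 3 mice of each genotype, and their age and housing temperature are not given in the sources used here. Inguinal fat came from mice 6 to 8 months old that had been acclimated to 10 °C for 7 days, and the pads of 6 mice were pooled by genotype and divided into 3 aliquots. The iWAT p-values therefore measured the spread between aliquots of 1 pool per genotype and not between animals. Cre was driven by the Adiponectin promoter, which is active in adipocytes, so that any muscle, vascular or immune cells in the tissue were not targeted.

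Skeletal muscle contracts when calcium released from the sarcoplasmic reticulum lets myosin motors pull on actin filaments that are anchored at the Z disc. The genes of this apparatus are switched on by the myogenic factors, such as Myf5, Myod1 and myogenin (Myog), together with MEF2 proteins. Brown adipocytes of the interscapular depot descend from Myf5-expressing precursors that also give rise to skeletal muscle, whereas most inguinal adipocytes do not, which makes the chromatin of muscle genes a point of comparison between the depots. An ATAC-seq peak marks DNA that the transposase could reach. It says nothing by itself about transcription.

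Total reads in peaks ranged from 6336670 to 27500738 per BAT library and from 4066720 to 6691161 per iWAT library. In BAT the first principal component (PC1) held 55.6% of the variance and followed depth, from the deepest library, flox replicate 1, to the shallowest, AKO replicate 2, and it was a covariate of the BAT fit. Its scores were -98.2, -41.8 and 14.6 in flox and -0.617, 112 and 13.5 in AKO replicates 1 to 3. PC1 was thus partly shared with genotype, and the covariate can take up part of a genotype difference. All values below are reads per peak divided by a size factor per library (normalised reads), and fold changes are AKO over flox on the log2(normalised reads + 1) scale from limma. Both tables were normalised separately, so levels were compared within a tissue. Smarcd1 itself had a BAT peak at its start site that held 369 to 485 normalised reads in flox and 412 to 497 in AKO samples. A second BAT peak held 136, 201 and 185 in flox and 23.7, 57.9 and 26.9 in AKO samples. In iWAT a single Smarcd1 peak, at the start site, held 188 to 249 in flox and 229 to 233 in AKO aliquots. Neither start-site peak separated the genotypes, and which exons were deleted is not given in the sources used here. The paper reported efficient deletion of BAF60a in iWAT adipocytes by qPCR.

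The sequences that follow show the regions the results turn on, from GRCm38 (mm10), each over 250 bases. The first was the centre of the Dysf exon 34 peak, which DESeq2 and edgeR called in iWAT, at chr6:84140016-84140265 on the plus strand. The second was the centre of the Des peak with the lowest p of all muscle peaks in BAT, at chr1:75361938-75362187 on the plus strand, and the third lay in a peak assigned to Mb at chr15:77008940-77009189 on the plus strand. The next pair were the bases before the upstream and the principal start site of Dysf, at chr6:84008348-84008597 and chr6:84019136-84019385, and the last was the region before the start site of Ckm at chr7:19410844-19411093, which had no assigned peak in either tissue. The last 3 came from RefSeq, and all are on the plus strand. Capitals mark matches on either strand to the myogenic E-box CAGCTG, the MEF2-like pattern CTANNNNTAG, the EBF palindrome TCCCNNGGGA or the nuclear receptor half-site AGGTCA. N is any base, so the MEF2-like pattern is looser than a site limited to A and T between CTA and TAG.
Dysf exon 34 peak: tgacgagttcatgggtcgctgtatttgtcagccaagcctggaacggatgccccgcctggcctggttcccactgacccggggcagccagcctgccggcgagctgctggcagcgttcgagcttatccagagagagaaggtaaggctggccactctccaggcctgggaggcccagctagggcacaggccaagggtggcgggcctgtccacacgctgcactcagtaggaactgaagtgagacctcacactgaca
Des exon 2 to 3 peak: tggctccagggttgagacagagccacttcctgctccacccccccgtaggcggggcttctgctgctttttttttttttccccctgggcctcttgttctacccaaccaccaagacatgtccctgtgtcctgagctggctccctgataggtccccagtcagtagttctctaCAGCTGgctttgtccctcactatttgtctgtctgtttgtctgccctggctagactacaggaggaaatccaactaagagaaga
Mb distal peak: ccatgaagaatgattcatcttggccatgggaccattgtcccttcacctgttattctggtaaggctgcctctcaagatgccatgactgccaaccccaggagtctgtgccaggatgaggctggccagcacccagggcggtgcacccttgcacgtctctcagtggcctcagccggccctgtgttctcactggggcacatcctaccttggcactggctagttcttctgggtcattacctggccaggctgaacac
Dysf upstream start: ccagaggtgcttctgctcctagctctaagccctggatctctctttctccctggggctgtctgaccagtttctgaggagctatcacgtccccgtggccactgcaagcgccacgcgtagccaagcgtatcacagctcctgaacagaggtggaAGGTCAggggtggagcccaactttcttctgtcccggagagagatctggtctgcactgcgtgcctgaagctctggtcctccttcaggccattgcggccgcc
Dysf principal start: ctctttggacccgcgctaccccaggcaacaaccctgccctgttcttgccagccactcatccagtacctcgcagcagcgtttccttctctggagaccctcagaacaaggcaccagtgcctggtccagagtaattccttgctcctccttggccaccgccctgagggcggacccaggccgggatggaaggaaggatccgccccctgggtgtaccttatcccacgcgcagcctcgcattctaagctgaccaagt
Ckm start: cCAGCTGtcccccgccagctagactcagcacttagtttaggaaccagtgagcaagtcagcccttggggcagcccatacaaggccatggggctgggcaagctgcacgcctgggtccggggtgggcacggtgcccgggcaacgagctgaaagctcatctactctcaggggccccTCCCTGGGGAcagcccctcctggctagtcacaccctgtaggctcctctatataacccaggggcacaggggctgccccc
The Des centre held 1 myogenic E-box, the upstream Dysf promoter 1 nuclear receptor half-site, and the Ckm promoter 1 myogenic E-box and 1 EBF palindrome. The centres of the Dysf and Mb peaks and the principal Dysf promoter held no match to these letters.

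The myogenic E-box, which MyoD-family factors bind, and the other motifs were counted in the promoters and in the peaks of the genes. Of 38 promoters that matched 29 of the genes, 14 (36.8%) held the E-box in the 250 bases before the start site. Over all 32851 promoters the share was 13%. The MEF2-like pattern was in 4 (10.5%) beside 3.2%, the EBF palindrome in 3 (7.89%) beside 0.779%, and the nuclear receptor half-site in 6 (15.8%) beside 14%. In the central 250 bases of the peaks assigned to the genes, the E-box was present in 20 of 89 BAT peaks (22.5%) and 13 of 53 iWAT peaks (24.5%). All peaks held it at 19.4% in BAT and 20.8% in iWAT. The nuclear receptor half-site was present in 24 BAT peaks of the genes (27%) and 8 iWAT peaks (15.1%), against 19.9% and 16.3% of all peaks. For the MEF2-like pattern the counts were 4 (4.49%) and 2 (3.77%), against 3.37% and 2.88%. For the EBF palindrome they were 4 (4.49%) and 2 (3.77%), against 2.12% and 1.47%. A match of letters is not a bound site.

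Of the 35 muscle genes, 17 had no peak over or within 1000 bp of an annotated start site in either tissue. The lack of a called peak does not show that the DNA there was closed. In BAT, a peak lay over or within 1000 bp of an annotated start site for 14 of the 35 genes (40%), beside 64.2% of 20780 autosomal protein-coding genes, and in iWAT for 12 of 35 (34.3%) beside 60.9%. Of 10 genes that define muscle fibres, such as Ckm, Mylpf and Casq1, 2 had a start-site peak in BAT and 4 in iWAT. In BAT they were Acta1, whose peak also overlapped Gm20388, and Mylpf, whose peak was assigned to Tbc1d10b. In iWAT they were Acta1, Mylpf, Casq1 and Pvalb. Of 4 satellite cell genes, none had one in BAT and 1 did in iWAT, which was Myf5. The start sites of all 9 adipocyte genes on the marker list had a peak in both tissues, and those of the brown adipocyte list in 8 of 8 in BAT and 7 of 8 in iWAT. The smooth muscle list had one at 7 of 8 genes in BAT and 4 of 8 in iWAT. The endothelial list had one at 4 and 3 of 7, and the immune list at 0 of 7 in both tissues. Ckm, the creatine kinase of muscle, Tnnt3 and Tnnc1, a pair of troponin subunits, Actn3, an actinin of fast fibres, and Myod1 had no assigned peak in either tissue, although a peak assigned to another gene lay at the start site of Actn3.

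**Figure D1:**
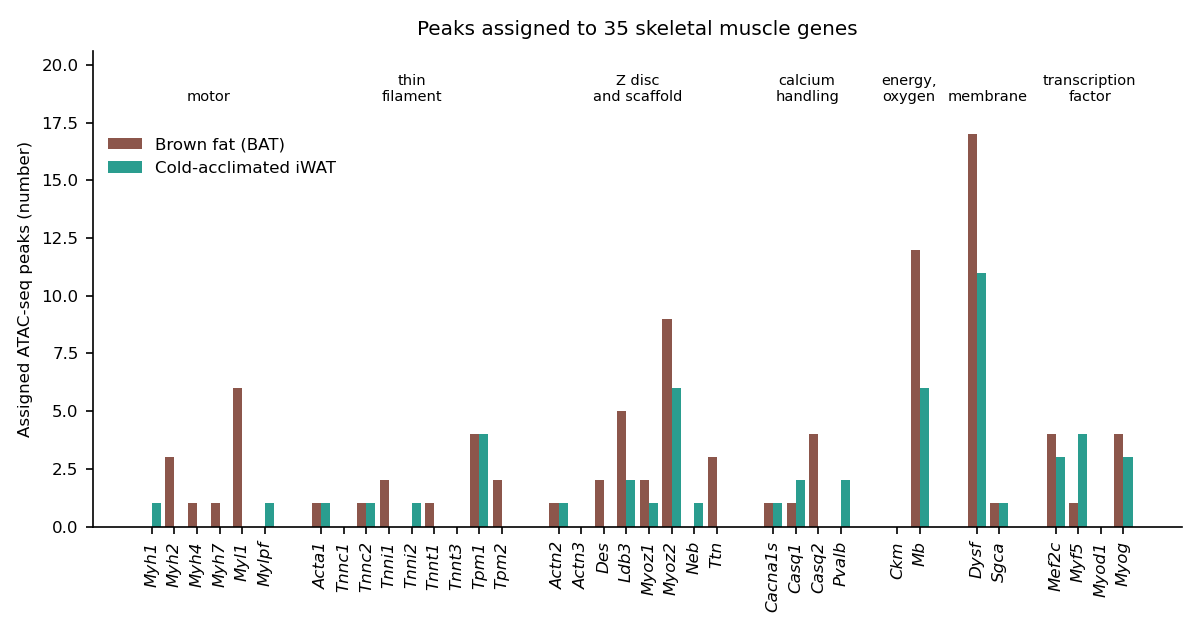
Number of ATAC-seq peaks assigned to each of the 35 genes (x axis, grouped by role) in BAT and in cold-acclimated iWAT. Dysf had the most peaks in both tissues, 17 and 11, and 5 genes had none in either.

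Peaks were spread unevenly over the genes. Dysf held 17 BAT and 11 iWAT peaks, Mb, which encodes the oxygen carrier myoglobin, 12 and 6, and Myoz2, a calcineurin-binding protein of the Z disc, 9 and 6, of which 8 and 6 lay inside the neighbouring gene Synpo2. Of all peaks of the genes, 17 in BAT and 13 in iWAT lay within another gene. Genes represented in BAT alone, 10 in number, were Myh2, Myh4, Myh7, Myl1, Tnnt1, Tnni1, Tpm2, Ttn, Des and Casq2. Those in iWAT alone were Myh1, Mylpf, Tnni2, Neb and Pvalb, of which the Mylpf region was assigned to Tbc1d10b in BAT. Per kb of peak, the median signal of the genes' peaks was 279 normalised reads in BAT and 160 in iWAT, at the median percentiles 55.9 and 45.3 of each table.

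Most iWAT peaks of the muscle genes were also BAT peaks. Of 53 iWAT peaks, 41 (77.4%) overlapped a BAT peak by at least 1 bp, beside 80.5% of all iWAT peaks, and of 89 BAT peaks, 40 (44.9%) overlapped an iWAT peak beside 53.8% of all. For Dysf the counts were 10 of 11 iWAT peaks and 10 of 17 BAT peaks. The BAT libraries were the deeper, and how far that sets which peaks were called was not tested.

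In brown fat, no peak of the muscle genes was called by limma between AKO and flox mice, and the lowest p belonged to a Des peak that was lower in AKO. None of the 89 peaks had a limma adjusted p under 0.1, nor did any of the 58558 peaks (0.0%). The second Smarcd1 peak, at a log2 fold change of -2.98, was not called either (limma adjusted p = 0.269). A lack of a limma call therefore does not show that a peak was unchanged. At an unadjusted limma p under 0.05, 3 of the 89 were lower and 4 higher, beside 5.59% and 3.46% of all peaks. DESeq2 on the recovered reads called 1 of the 89, lower, beside 0.217% of all peaks lower and 0.0803% higher, and edgeR called none, beside 0.114% lower and 0.029% higher. The median log2 fold change of the muscle peaks was 0.048, with 38 of 89 negative, beside a median of 0.0067 and 49.1% negative over all peaks. Sample values of the genotypes did not overlap at 6 lower and 8 higher peaks, against 8.84% and 8.77% of all peaks. Without PC1, 28 of the 89 peaks changed the sign of their fold change.

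Des encodes desmin, the intermediate filament that ties Z discs together, and it is also expressed in smooth muscle. The peak over exons 2 and 3, at chr1:75361760-75362366, held 507, 471 and 507 normalised reads in flox and 298, 348 and 311 in AKO mice. All 3 AKO values lay below all flox values, and the mean was 495 ± 20.7 in flox and 319 ± 25.8 in AKO (SD, n = 3). The log2 fold change was -0.72 ± 0.18 (SE), with an adjusted p of 0.440 in limma, 0.053 in DESeq2 and 0.130 in edgeR. Leaving out each mouse in turn gave log2 fold changes from -0.75 to -0.66. The other Des peak, upstream of the gene at chr1:75357252-75357814, held 162, 234 and 172 in flox and 143, 116 and 116 in AKO mice, again without overlap, at -0.53 ± 0.25 (limma adjusted p = 0.586).

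**Figure D2:**
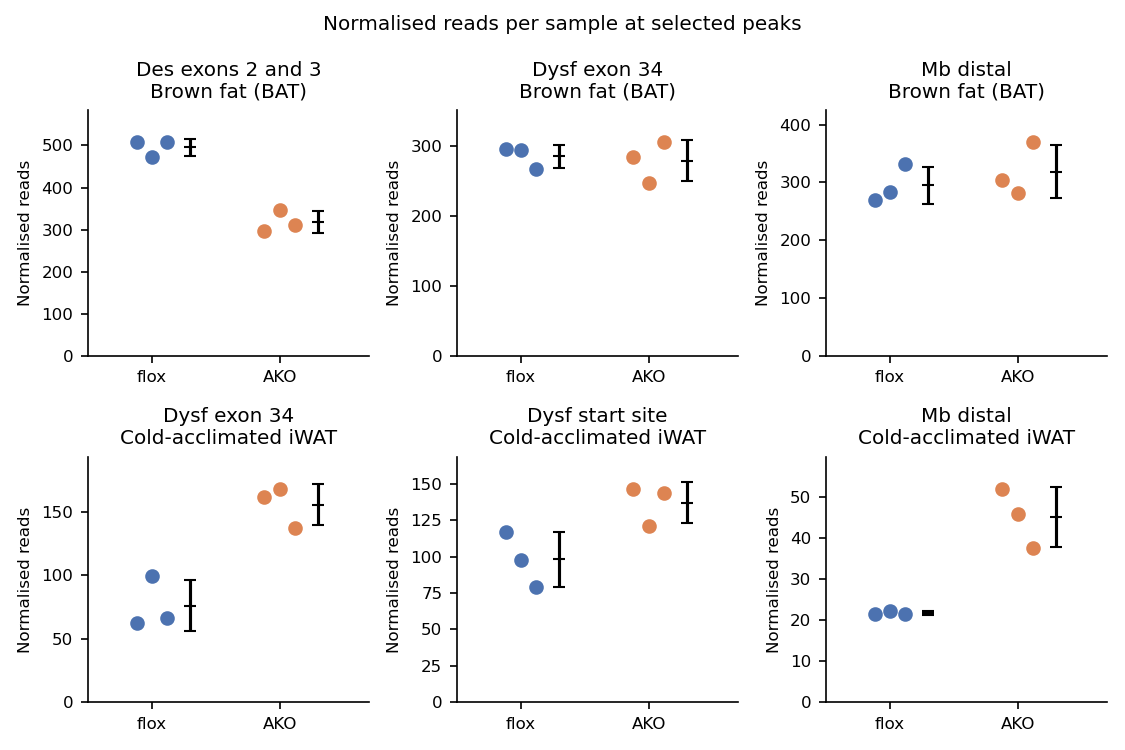
Normalised reads (y axis, from 0) in each flox and AKO sample at 3 BAT peaks (top) and 3 iWAT peaks (bottom), with the mean and SD of 3 samples as a bar beside the points. The Des peak was lower in all AKO mice, and the Dysf exon 34 and Mb peaks were higher in all AKO aliquots of iWAT while the BAT values overlapped.

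In the same BAT samples the summed adipocyte and brown adipocyte marker lists were lower in AKO without overlap. The smooth muscle, muscle fibre, endothelial and immune lists overlapped. These sums were not adjusted for PC1. Over all BAT peaks the sum was 1.31e+07 to 1.44e+07 normalised reads in flox and 1.22e+07 to 1.33e+07 in AKO mice, which overlapped. The summed signal of the peaks of 8 brown adipocyte genes was 23570 to 27369 normalised reads in flox and 16624 to 18208 in AKO mice, and 75 of its 83 peaks had a negative fold change. The adipocyte list, with 9 of 9 genes represented, summed to 25941 to 28509 in flox and 18130 to 24453 in AKO mice. Both lists had their lowest sum in AKO replicate 2, the shallowest library. The smooth muscle list, with 8 of 8, summed to 3773 to 3866 and 3569 to 4092. The endothelial list, with 7 of 7, summed to 3084 to 3248 and 3020 to 3596, and the immune list, with 2 of 7, to 229 to 301 and 221 to 282. The muscle fibre list, with 5 of 10 genes represented, summed to 593 to 714 in flox and 671 to 821 in AKO mice, and its members Ckm, Tnnt3, Mylpf, Myh1 and Pvalb had no peak. In whole tissue, fewer cells of a type and less accessible DNA per cell cannot be told apart, and the part of these lists in the Des values was not tested.

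Among the motors, Myl1, a light chain of fast myosin, had 6 BAT peaks. The one downstream of the gene held 136, 138 and 177 normalised reads in flox and 114, 151 and 98.8 in AKO mice, values that overlapped, and its fold change of -0.65 ± 0.20 (limma adjusted p = 0.480) shrank to -0.32 without PC1. At the Myl1 start site the fold change was -0.60 ± 0.37, and at its upstream start site 0.14 ± 0.22. The 3 peaks of the fast heavy chain gene Myh2 and the single peaks of Myh4 and of the slow chain gene Myh7 ranged from -0.13 to 0.13, and from -0.15 to 0.62 without PC1. None of the 11 motor peaks in BAT lay lower without overlap, and 1 lay higher, that of Myh7, beside 8.84% and 8.77% of all BAT peaks.

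The thin filament genes had 11 BAT peaks with a median of 0.12, of which 7 turned sign without PC1. The start-site peak of Acta1, skeletal alpha-actin, held 98.8, 128 and 164 normalised reads in flox and 143, 234 and 153 in AKO mice, and its fold change was -0.10 with PC1 and 0.43 without. The peak within 1000 bp of a start site of Tnni1, slow troponin I, held 4.70, 17.7 and 22.0 in flox and 38.1, 40.6 and 48.0 in AKO mice, without overlap, at 1.01 ± 0.53 (limma adjusted p = 0.615). It was among the weakest peaks, at percentile 9.14 of signal per kb. All 4 peaks of Tpm1, a tropomyosin that smooth muscle and other cells also use, had positive values from 0.09 to 0.32, of which 1, at an internal start site, was -0.07 without PC1. The Tpm2 peaks were at -0.20 and -0.19, and at 0.26 and 0.16 without PC1. Tnnc2, the fast troponin C gene, had its start-site peak inside Ube2c, and its value was 0.29 with PC1 and -0.26 without.

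Z disc and scaffold genes had 22 BAT peaks with a median of -0.15. Of these 13 were negative, or 15 without PC1. Without overlap, 4 were lower and none higher, beside 8.84% and 8.77% of all BAT peaks. These were the 2 Des peaks and 2 peaks assigned to Myoz2 that lay upstream of it. The Myoz2 peaks were at chr3:123045426-123045771 and, inside Synpo2, at chr3:123128094-123129237. A peak assigned to Myoz2 inside Synpo2, at chr3:123085675-123086382, had a value of -0.42 ± 0.17 (limma adjusted p = 0.543), with overlapping samples. All 3 peaks of Ttn, which encodes the giant spring titin, were negative, from -0.59 to -0.14, although the last was 0.85 without PC1, and the one at the start site held 89.9, 82.8 and 95.7 normalised reads in flox and 66.0, 86.9 and 73.9 in AKO mice. Its fold change was -0.42 ± 0.19 (limma adjusted p = 0.571). The start-site peaks of Actn2, which encodes an actinin of the Z disc, and of Ldb3, a PDZ protein that binds it, had values of -0.27 and -0.15.

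Calcium and oxygen genes had 2 of 6 and 2 of 12 BAT peaks higher without overlap and none lower, beside 8.77% and 8.84% of all BAT peaks. Casq2, the calsequestrin of slow and cardiac muscle, had a short peak in intron 8 at chr3:102135783-102135948 that held 15.2, 30.3 and 14.2 normalised reads in flox and 39.2, 54.1 and 42.2 in AKO mice. These values did not overlap, and the fold change was 1.07 ± 0.39 (limma adjusted p = 0.520), or 0.34 (without flox replicate 3) to 1.40 when 1 mouse was left out. The other 3 Casq2 peaks were at -0.04, -0.25 and -0.58, and at 0.23, 0.11 and 0.22 without PC1. Of 12 Mb peaks, 10 were positive, and the one at chr15:76998809-76999326 held 111, 151 and 133 in flox and 189, 195 and 201 in AKO mice, without overlap, at 0.48 ± 0.21 (limma adjusted p = 0.557). The Mb peak within 1000 bp of a start site had a value of 0.14.

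Among 9 BAT peaks of the transcription factor genes, the lowest p of Myog belonged to a peak downstream of the gene that held 298, 343 and 256 normalised reads in flox and 211, 164 and 206 in AKO mice, without overlap, at -0.40 ± 0.20 (limma adjusted p = 0.602). The lowest of Mef2c, which also acts outside muscle, was 0.27 ± 0.22, or 0.01 without flox replicate 3, and both of its start-site peaks were near 0.10. The single Myf5 peak lay in Lin7a and had a value of -0.42 ± 0.25.

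**Figure D3:**
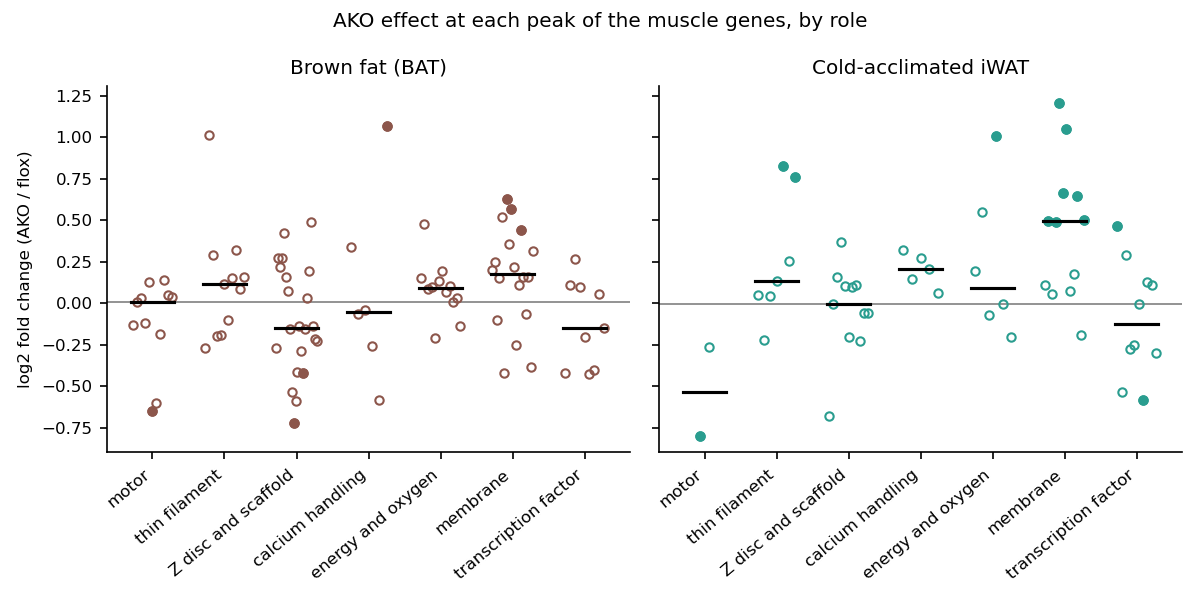
The log2 fold change (AKO over flox, y axis) of every peak of the genes in BAT (89 peaks) and iWAT (53 peaks), by role. Filled points have an unadjusted limma p under 0.05, black bars are medians, and the grey line is the median of all peaks of the table. The membrane group, which is Dysf and Sgca, lay highest in iWAT at a median of 0.49.

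Dysf in BAT had 17 peaks from its upstream start site to beyond its 3′ end, at percentiles of signal per kb from 27.0 to 93.0. Of their fold changes, 12 were positive and 5 negative, with a range from -0.42 to 0.63 and a median of 0.16. Without PC1, 10 were positive and 7 negative, with a median of 0.09. The summed signal was 3252 to 3583 normalised reads in flox and 3075 to 3966 in AKO mice, ranges that overlapped. The peaks with the lowest p were in introns 17, 3 and 36, with 0.57 ± 0.20, 0.63 ± 0.25 and 0.44 ± 0.19 (limma adjusted p = 0.515, 0.539 and 0.552). Without PC1 they were 0.09, 0.24 and 0.27, and none of the 17 was then higher at an unadjusted p under 0.05. Elsewhere in Dysf, introns 3, 4, 24, 32 and 40 gave 0.52, 0.36, 0.22, -0.25 and 0.16, intron 41 gave -0.06, intron 51 gave 0.16 and -0.38, and the peaks between the start sites and 3′ of the gene gave -0.10 and 0.31, each at an unadjusted p over 0.05. The intron 17 peak held 260, 242 and 188 in flox and 324, 174 and 252 in AKO mice, which overlapped. The intron 36 peak held 283, 267 and 221 and 300.0, 290 and 338, which did not.

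At the start sites and in exon 34, the AKO effect on Dysf in BAT gave fold changes from 0.11 to 0.25 with PC1, and without it the principal start site and exon 34 were at -0.03 and -0.04. The upstream start site had 163, 146 and 150 normalised reads in flox and 166, 191 and 192 in AKO mice, without overlap, at 0.25 ± 0.19. The principal start site had 402, 348 and 360 and 344, 309 and 444, which overlapped, at 0.15 ± 0.21. The exon 34 peak had the highest signal per kb of the Dysf peaks in BAT, with 295, 295 and 266 in flox and 283, 247 and 305 in AKO mice, and its value was 0.11 ± 0.18. One intron 3 peak, at chr6:84043090-84043853, lay lower without overlap, at -0.42 ± 0.27, and at -0.51 without PC1.

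In cold-acclimated iWAT the muscle genes again had no limma call, and 10 of 11 Dysf peaks had a positive fold change. None of the 53 peaks had a limma adjusted p under 0.1, nor did any of the 39558 peaks (0.0%), so this does not set the muscle genes apart. At an unadjusted limma p under 0.05, 11 of the 53 were higher and 2 lower, beside 7.61% and 7.42% of all peaks. Values did not overlap at 12 higher and 4 lower peaks, beside 10.6% and 10.3% of all peaks, and of the 12 higher, 6 were of Dysf. DESeq2 called 1 peak, higher, beside 0.493% of all peaks higher and 0.569% lower, and edgeR called 3 higher and 1 lower, beside 2.15% and 2.52%. The median log2 fold change was 0.11, with 19 of 53 negative, beside -0.00089 and 50.1% negative over all peaks. Without Dysf the median of the remaining 42 was 0.08.

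The exon 34 peak of Dysf, at chr6:84139951-84140331, was the peak that both DESeq2 and edgeR called. It held 62.7, 99.0 and 66.3 normalised reads in flox and 161, 168 and 137 in AKO aliquots. All AKO values lay above all flox values, and the mean was 76.0 ± 19.97 in flox and 155 ± 16.3 in AKO (SD, n = 3), a ratio of 2.04. The log2 fold change was 1.05 ± 0.20 (SE), with an adjusted p of 0.151 in limma, 0.00105 in DESeq2 and 7.32e-05 in edgeR. It ranged from 0.93 to 1.25 when 1 aliquot was left out. When weaker peaks, with a mean under 50 normalised reads, were dropped, limma called it, at an adjusted p of 0.0742.

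**Figure D4:**
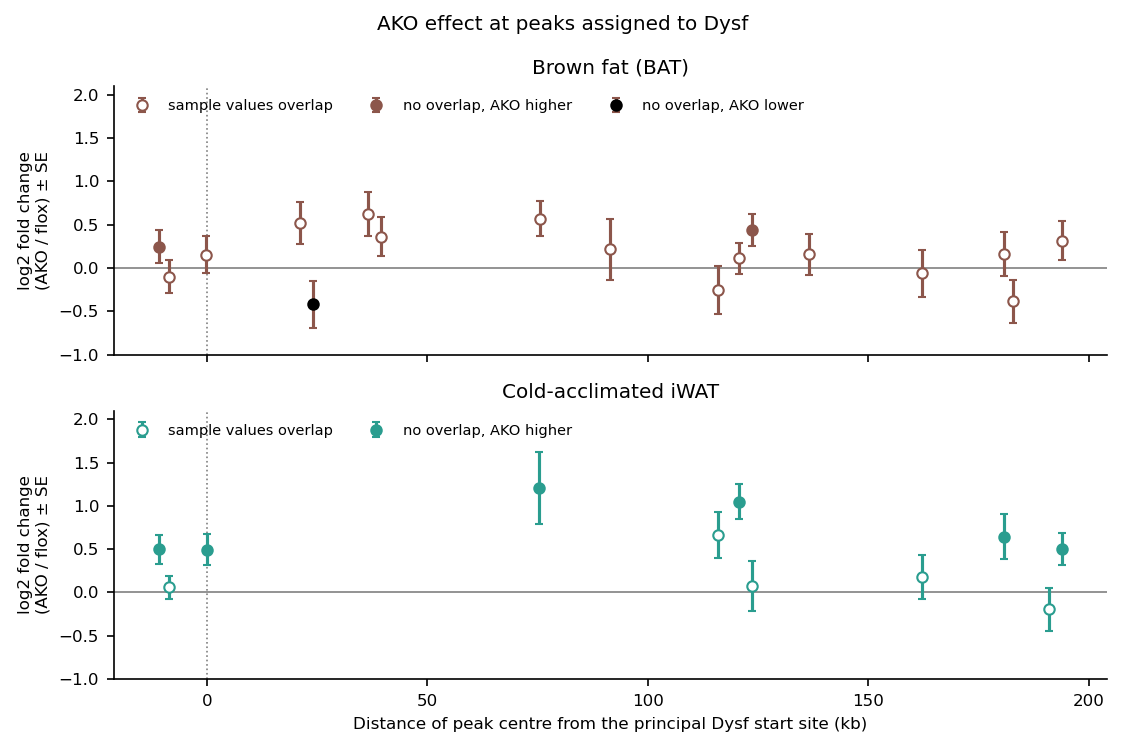
The log2 fold change ± SE (y axis) of each peak assigned to Dysf against the distance of its centre from the principal start site in kb, in BAT (17 peaks) and iWAT (11 peaks). Filled points mark peaks whose flox and AKO values did not overlap; 6 iWAT peaks were higher without overlap, and in BAT 2 were higher and 1 lower.

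Of the 11 Dysf peaks in iWAT, 10 had a positive and 1 a negative fold change, with a median of 0.50. The peak in intron 17 held 22.8, 26.7 and 8.61 normalised reads in flox and 41.5, 30.8 and 56.7 in AKO aliquots, without overlap, at 1.21 ± 0.41 (adjusted p = 0.246 in limma, 0.164 in DESeq2 and 0.0431 in edgeR). Its fold change ranged from 0.73 (without flox replicate 3) to 1.498 when 1 aliquot was left out. The upstream start site held 42.1, 47.8 and 47.3 in flox and 64.5, 77.6 and 54.5 in AKO, and the principal start site 117, 97.8 and 79.2 and 146, 121 and 143. Both start sites were higher without overlap, at 0.50 ± 0.16 and 0.49 ± 0.18 (limma adjusted p = 0.234 and 0.266).

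The remaining Dysf peaks were called by none of limma, DESeq2 and edgeR. In intron 51 the peak held 64.9, 32.2 and 56.8 normalised reads in flox and 83.0, 67.4 and 83.4 in AKO, and downstream of the gene 44.9, 41.1 and 49.1 and 81.8, 53.7 and 59.9. Both were without overlap, at 0.65 ± 0.26 and 0.50 ± 0.19. The intron 32 peak, at 0.66 ± 0.27, overlapped. Without flox replicate 2 intron 51 was at 0.35 and intron 32 at 0.40, and without AKO replicate 1 the downstream peak was at 0.33. The peaks 5′ of the principal start site at chr6:84010317-84011181 and in introns 36 and 41 were at 0.06, 0.07 and 0.18, and that in intron 54 was at -0.19.

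Summed over its 11 peaks, Dysf held 583 to 653 normalised reads in flox and 802 to 892 in AKO aliquots, and without exon 34 the other 10 summed to 484 to 590 and 665 to 731. Neither pair of ranges overlapped. The 34 other genes summed to 3371 to 3640 and 3480 to 3580. Within 500 kb on either side of Dysf, 26 iWAT peaks assigned to 9 other genes had a median of 0.10, with 15 positive and 11 negative. Without overlap, 3 were higher and 1 lower, beside 10.6% and 10.3% of all iWAT peaks. In BAT, 30 such peaks had a median of 0.18, with 24 positive, close to the 0.16 of Dysf itself. Of those, 4 were higher and none lower without overlap, beside 8.77% and 8.84% of all BAT peaks. The position of Dysf values against their neighbours was not tested.

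The marker lists in iWAT were taken from the same aliquots. The brown adipocyte list summed to 2263 to 2379 normalised reads in flox and 2320 to 2469 in AKO aliquots, and the adipocyte list to 5037 to 6089 and 4559 to 5143. The endothelial list, with 5 of 7 genes represented, summed to 960 to 1030 and 900.2 to 953, and the immune list, with 5 of 7, to 380 to 422 and 280 to 372. Both of the latter were lower in AKO without overlap. The smooth muscle list, with 8 of 8, summed to 1267 to 1360 and 1288 to 1387, which overlapped. The muscle fibre list, with 6 of 10, summed to 1055 to 1214 and 1035 to 1061, and Ckm, Tnnt3, Myh4 and Myh2 had no peak. The part of these lists in the Dysf values was not tested.

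Among the other genes, Mb had the lowest limma p in iWAT. Its peak at chr15:77008940-77009190, 3′ of the gene, held 21.4, 22.2 and 21.5 normalised reads in flox and 51.9, 45.7 and 37.4 in AKO aliquots. All AKO values lay above all flox values, and the ratio of means was 2.07. The log2 fold change was 1.01 ± 0.15, with an adjusted p of 0.149 in limma, 0.120 in DESeq2 and 0.0487 in edgeR. Of the 6 Mb peaks, 3 were positive and 3 negative.

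Thin filament peaks of iWAT were mostly of Tpm1. Its exon 3 peak held 14.3, 16.7 and 25.0 normalised reads in flox and 34.6, 28.5 and 36.4 in AKO aliquots, at 0.83 ± 0.22 (limma adjusted p = 0.184), and the peak at its start site 17.1, 12.2 and 21.5 and 27.7, 32.0 and 26.7, at 0.76 ± 0.21 (limma adjusted p = 0.190). Neither overlapped. The strong peak at an internal Tpm1 start site, at percentile 96.6 of signal per kb, held 287, 301 and 276 and 337, 320 and 379, also without overlap, at 0.26 ± 0.13. The start-site peaks of Acta1 and Tnnc2 were at 0.05 each and that of Tnni2, fast troponin I, at -0.22.

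Motors and Z disc peaks were few. The peak of Myh1, a fast heavy chain, lay in intron 9 and held 26.4, 16.7 and 36.2 normalised reads in flox and 17.3, 13.7 and 11.8 in AKO aliquots, which overlapped, at -0.80 ± 0.28 (limma adjusted p = 0.256). Mylpf, the regulatory light chain of fast myosin, shared its strong start-site peak with Tbc1d10b, and edgeR called it lower, at -0.27 ± 0.13 with an adjusted p of 0.0505 beside 0.402 in limma. It held 817, 668 and 759 in flox and 613, 631 and 616 in AKO aliquots. Actn2 had a start-site peak at -0.68 ± 0.32 (limma adjusted p = 0.371), with 48.5, 45.6 and 41.3 in flox and 48.4, 22.8 and 19.2 in AKO. All 5 peaks of the calcium genes Casq1, Cacna1s and Pvalb were positive, from 0.06 to 0.32, and none was without overlap.

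The transcription factor genes had 10 iWAT peaks, of which 3 were lower and 1 higher without overlap, beside 10.3% and 10.6% of all iWAT peaks. A Mef2c peak in intron 2 held 62.7, 48.9 and 52.5 normalised reads in flox and 34.6, 43.4 and 31.0 in AKO aliquots, at -0.58 ± 0.17 (limma adjusted p = 0.205). The Mef2c start-site peak was at -0.0037. Myf5 had a peak in Lin7a with 27.1, 26.7 and 37.0 in flox and 40.3, 42.2 and 42.8 in AKO, at 0.47 ± 0.16 (limma adjusted p = 0.250), and another 3′ of the gene at -0.53 ± 0.23. Its exon 1 peak and the one upstream of the start site were at 0.29 and -0.28, and the latter had the lowest signal per kb of all the genes' iWAT peaks, at percentile 0.0683. A Myog peak inside Ppfia4 was at -0.30 ± 0.15.

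The AKO effect was then compared between the tissues at 41 peaks of the genes present in both tables, in a limma fit of tissue and genotype. This fit shared a residual variance between BAT mice and aliquots of pooled iWAT, so its p-values measured neither spread alone. Tissue cannot be told apart from cold acclimation, pooling or sequencing instrument. None of the 41 had an adjusted p under 0.1 for the difference, nor did any of 31390 shared peaks (0.0%). At an unadjusted p under 0.05 there were 6 of the 41, beside 9.47% of all shared peaks. Without PC1, 17 of all shared peaks (0.0542%) were called and none of the 41. The lowest was the Mb peak, with 0.04 in BAT and 1.01 in iWAT, a difference of -0.97 ± 0.25 (limma adjusted p = 0.323). The Dysf exon 34 peak had 0.05 in BAT and 1.04 in iWAT, a difference of -0.99 ± 0.28 (limma adjusted p = 0.336). Others were the Myf5 peak in Lin7a at -0.93, a Dysf intron 32 peak at -0.97, the Tpm1 start-site peak at -0.73 and the Mef2c intron 2 peak at 0.80. The median difference, BAT minus iWAT, was -0.19 over the 41 and -0.0051 over all shared peaks. The median of the genes was -0.07 without PC1, -0.11 at peaks overlapping by 50%, -0.09 without iWAT AKO replicate 3 and -0.10 without iWAT flox replicate 2. For Dysf, 9 of 10 shared peaks had the larger value in iWAT. These peaks are of 1 gene in the same aliquots, so they are not replicates of a tissue difference. The matching share over all shared peaks was not counted.

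**Figure D5:**
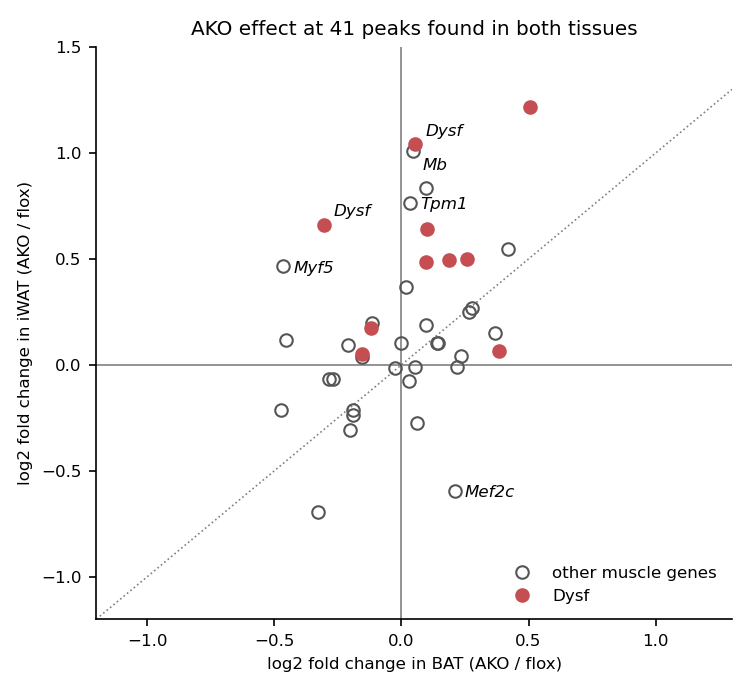
The log2 fold change (AKO over flox) in BAT (x axis) and iWAT (y axis) at the 41 peaks of the genes found in both tissues, from the joint fit. The dotted line marks equal values, and genes are named where the difference had an unadjusted p under 0.05; 9 of the 10 Dysf points lie above the line.

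Other genes of striated muscle, a list of 55 such as Ryr1, Pygm and Flnc, were counted beside them. In BAT, 39 had 127 peaks with a median of -0.01, of which 11 were lower and 2 higher at an unadjusted limma p under 0.05 (5.59% and 3.46% of all peaks), and 15 were lower and 10 higher without overlap (8.84% and 8.77% of all). In iWAT, 32 had 67 peaks with a median of 0.05, of which 1 was lower and 8 higher (7.42% and 7.61% of all), and 3 lower and 5 higher without overlap (10.3% and 10.6% of all). A start-site peak was present for 18 of the 55 in BAT and 14 in iWAT, beside 64.2% and 60.9% of protein-coding genes. None of these peaks had a limma adjusted p under 0.1 in either tissue.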

How the data were processed

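ATAC-seq of nuclei from BAT and cold-acclimated iWAT was analysed in 12 libraries, 3 of each genotype and tissue. The authors trimmed adapters, mapped reads to mm10 with BWA 0.7.17-r1188, removed duplicates with Picard 2.8.14, kept autosomal reads, called broad peaks with MACS2 2.1.1.20160309, kept peaks that 2 of the 3 samples of either genotype shared and counted reads with bedtools 2.27.1. iWAT reads were trimmed to 38 bp. The deposited signal values are reads per peak that the authors divided by a DESeq2 size factor of each sample. The deposited tables also hold the authors' fold changes and p-values, which were not used. Assigned gene symbols are those of the tables, and 0 columns of sample values were left unused.

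All values (100%, tolerance 0.01 reads) came out as whole reads when divided by 1 step per column. limma 3.58.1 was fitted to log2(normalised reads + 1) over all peaks of each table, AKO against flox, two-sided, with PC1 as a covariate in BAT, Benjamini-Hochberg adjustment and a threshold of 0.1. DESeq2 1.42.0 and edgeR 4.0.16 were fitted to the recovered reads, with the same covariate. With 3 samples a group the smallest exact permutation p is 0.1, so single peaks rest on these fits. Shared peaks (mutual best overlaps of at least 1 bp) were normalised together for the tissue difference. Scripts were tested on simulated data. The median peak held 70 to 226 reads in BAT and 62 to 98 in iWAT, which limits the precision at weak peaks. Groups were said not to overlap when the highest value of one genotype was below the lowest of the other. DESeq2 gave no adjusted p for 15 of the BAT and 6 of the iWAT peaks of the genes.

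Gene members and lists were chosen with earlier results of these data known. Named peaks were every Dysf peak, in each tissue and direction the 5 with the lowest limma p, those within 1000 bp of a start site, the lowest-p peak of each transcription factor gene, and those called by DESeq2 or edgeR. Peaks were placed on GENCODE gene models of GRCm38, whose coordinates are those of mm10, with 1-based starts. Bases 1 to 250 of RefSeq promoters and central 250 bases of peaks were searched for motifs.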

Additional observations from a re-analysis of the deposited data

How the results depend on the processing

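With 3 samples a group, aliquots of 1 pool in iWAT and some peaks of 20 to 50 normalised reads, small differences were not detectable. Except where stated, the cause of a change was not tested. No peak of the genes was called when 1 sample was left out (0 in BAT, in iWAT and for the tissue difference), and the medians then ranged from -0.0413 (without AKO replicate 1) to 0.101 (without flox replicate 3) in BAT and from 0.042 (without AKO replicate 2) to 0.116 in iWAT, beside 0.0477 and 0.109 with all samples. DESeq2 called 1 peak in BAT with PC1 and 1 without it, and 1 in iWAT, and edgeR called 4 in iWAT. A mean of at least 50 normalised reads left 28 iWAT peaks, 1 call and a median of 0.0651. The BAT median was -0.0792 within 10 kb of the start site and 0.103 by edgeR without PC1, and with PC1 the iWAT median was -0.143. DESeq2 and edgeR without PC1 were chosen after seeing the data. The replicate numbers did not pair the samples (correlations of same-numbered deviations 0.49, 0.06 and -0.24 in BAT, all from -0.06 to -0.04 in iWAT).

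With a replicate block the BAT median was -0.0105 and no call was gained, and fold changes turned sign at Dysf introns 32 (0.0797) and 41 (0.12) and at the first Mef2c start-site peak (-0.0928). Without PC1, with or without the replicate block, they turned in BAT at the Dysf principal start (-0.0297), exon 34 (-0.039), intron 40 (-0.00124) and intron 41 (0.0749), Tnnc2 (-0.256), Tpm2 (0.264), Acta1 (0.431) and the internal Tpm1 start (-0.0671). DESeq2 and edgeR without PC1 gave -0.0104 and -0.0029 at the Dysf start, -0.0317 and -0.0253 at exon 34, 0.0794 and 0.0874 at intron 41, -0.232 and -0.223 at Tnnc2, 0.263 and 0.27 at Tpm2, 0.437 and 0.442 at Acta1, and -0.0295 and -0.022 at Tpm1.

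In iWAT the Mef2c start-site peak, near 0, became 0.00193 with total reads, 0.012 with DESeq2 and 0.0139 with edgeR. The iWAT PC1 scores separated the genotypes (-41.4 to -30.9 in flox, 29.4 to 37.8 in AKO), so that a fit with PC1 leaves little of the genotype difference. It gave -1.46 and -0.783 at the Dysf peaks 5′ of the principal start, -1.13 at exon 34, -2.6 at intron 41, -0.197 downstream of Dysf, -0.416 at Mb, -0.761 at Tpm1 exon 3, 0.969 at Myog, 0.637 at the Mef2c start, -0.776 at Pvalb, -1.8 at Tnnc2, 0.432 at Mylpf, 1 at Tnni2 and -0.398 at Myf5 in Lin7a, each with the sign turned.

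Leaving out 1 sample turned the sign at peaks with small effects. In BAT the sample was AKO replicate 1 (Dysf between its start sites and introns 32 and 41, Myl1, Tpm1), AKO replicate 3 (the other Dysf peaks, Mef2c) or flox replicate 3 (Dysf intron 41), and in iWAT flox replicates 2 or 3 or any AKO aliquot. The ranges in BAT were -0.231 to 0.0351 at Dysf between its start sites, -0.0423 to 0.33 at its principal start, -0.1 to 0.399 at intron 24, -0.578 to 0.147 at intron 32, -0.0465 to 0.407 at intron 40, -0.321 to 0.244 at intron 41, -0.117 to 0.427 at the first intron 51 peak, -0.042 to 0.433 at the second Mef2c start, -0.971 to 0.0285 at the Myl1 start and -0.0564 to 0.253 at the Tpm1 start. In iWAT they were -0.204 to 0.248 at Dysf intron 36, -0.353 to 0.0494 at intron 54, -0.0912 to 0.135 at Acta1, -0.0413 to 0.23 at Casq1, -0.104 to 0.13 at the Mef2c start and -0.0452 to 0.203 at Tnnc2.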
